A study of Mus musculus with 10 samples.

Results

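The 8 sarcomeric myosin heavy chain genes Myh4, Myh1, Myh2, Myh7, Myh3, Myh8, Myh6 and Myh7b were followed in the tibialis anterior muscle of mice with and without a tumor. They were chosen by gene symbol, because they encode the sarcomeric heavy chains whose share of the total defines fiber type, and they are 8 of the 39179 genes counted in each library. All 8 passed the filter on low counts and were among the 12690 genes tested. The tumor-bearing group (LLC, n = 6) received 750000 Lewis Lung Carcinoma cells, a mouse lung cancer line whose tumors cause cachexia, under the skin of each flank (1500000 cells in all). The Control group (n = 4) received phosphate-buffered saline in the same way and bore no tumor. The labels name no engineered allele in either group. The sample labels give the strain as C57BL/6J, an age of 10 weeks at injection and 23 days of tumor growth, whereas the series text gives male C57BL/10 mice aged 8 weeks studied on day 22. Each library came from the muscle of 1 mouse, and the study's methods state that the 6 LLC mice were animals that lived to the end of the experiment.

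Myosin heavy chain is the motor protein of the thick filament, and each isoform sets how fast a fiber splits ATP and shortens. In mouse limb muscle Myh4 encodes the fastest isoform, IIb, Myh1 encodes IIx, Myh2 encodes IIa and Myh7 encodes the slow isoform that is also the beta isoform of the heart. Myh3 and Myh8 encode the embryonic and the perinatal isoforms, which are used during development and again in regenerating fibers, Myh6 encodes the alpha isoform of the heart, and Myh7b encodes an ancient slow isoform. The tibialis anterior is a fast muscle of the lower leg, built mainly of IIb and IIx fibers. Myh3, Myh2, Myh1, Myh4 and Myh8 lie head to tail in that order on chromosome 11, with Myh13 after them, and Myh6 and Myh7 lie side by side on chromosome 14.

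The start regions of Myh4, Myh1 and Myh2 are shown because these 3 neighbors made up nearly all of the myosin heavy chain RNA. Each window holds the 250 bases before and the 50 bases from the start of the gene in RefSeq (build GRCm38.p6), 5′ to 3′ on the plus strand. The windows are chr11:67237562-67237861 for Myh4, chr11:67199852-67200151 for Myh1 and chr11:67170777-67171076 for Myh2. Capitals mark matches, on either strand, to the TATA box (TATAAA), to the E-box bound by MyoD and myogenin (CANNTG), to the MEF2 motif and to the CArG box of serum response factor.
Myh4: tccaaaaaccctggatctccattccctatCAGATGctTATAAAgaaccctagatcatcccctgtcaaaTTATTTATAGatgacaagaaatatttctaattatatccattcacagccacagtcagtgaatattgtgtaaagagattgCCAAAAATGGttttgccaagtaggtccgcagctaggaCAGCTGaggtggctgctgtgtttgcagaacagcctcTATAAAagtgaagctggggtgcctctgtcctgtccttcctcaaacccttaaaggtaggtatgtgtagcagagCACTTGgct
Myh1: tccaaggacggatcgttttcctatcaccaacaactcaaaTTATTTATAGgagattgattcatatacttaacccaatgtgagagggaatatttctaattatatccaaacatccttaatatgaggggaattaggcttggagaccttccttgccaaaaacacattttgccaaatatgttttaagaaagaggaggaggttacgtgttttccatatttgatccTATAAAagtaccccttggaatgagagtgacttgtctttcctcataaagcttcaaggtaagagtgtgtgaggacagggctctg
Myh2: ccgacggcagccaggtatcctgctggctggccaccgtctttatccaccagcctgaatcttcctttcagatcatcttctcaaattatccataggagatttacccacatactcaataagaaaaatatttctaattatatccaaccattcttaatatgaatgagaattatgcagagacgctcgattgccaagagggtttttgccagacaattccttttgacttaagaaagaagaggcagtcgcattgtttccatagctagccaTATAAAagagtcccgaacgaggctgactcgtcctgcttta
The Myh4 window held 3 matches to TATAAA, 3 E-boxes, 1 MEF2 match and 1 CArG box. The Myh1 window held 2 matches to TATAAA and 1 MEF2 match, and the Myh2 window held 1 match to TATAAA. The TATAAA nearest the gene start lay 31 bases upstream in Myh4 and 32 upstream in Myh1, but 10 bases downstream in Myh2. The Myh2 window is thus not aligned with the others on this match, and the motif counts do not cover like stretches. In Myh4 and Myh1 the reverse-strand TATAAA overlaps the MEF2 match, and the printed run of capitals covers both. Of 32851 windows of the same length around mouse gene starts, 13.6% held TATAAA, 72.3% an E-box, 3.19% a MEF2 match and 1.63% a CArG box. The motifs TCAGGTT (MEF3), present in 4.07% of all windows, and GTAAACA (FoxO), present in 3.65%, had no match in the window of any of the 8 genes. GGAAA (the core bound by NFAT), present in 61.3% of windows, matched 3 times in Myh1 and 1 time in Myh2, and had no match in Myh4. A match is a string of letters and does not show that a factor binds there.

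Total counts ranged from 16693209 to 21303084 per library, and the 8 genes took 4.22% to 5.81% of them. Mitochondrially encoded genes took 28.4% to 30.7% of counts in Control and 22.0% to 27.9% in LLC. LLC 1 stood apart from the other LLC libraries: over all tested genes its chi-square statistic per degree of freedom was 118 to 194 against each of them, whereas the other LLC pairs gave 8.36 to 60.5 and the Control pairs 3.89 to 8.64. Where leaving out LLC 1 changed a call or moved a gene's fold change or a difference given here by over 1.5 times, the value without it is given too. The fiber markers Ckm, Acta1, Des, Ttn and Neb were at 2199.7 CPM or more in every library, which fits the tissue label. Levels are in CPM, in which each count is divided by the TMM-scaled total of its library. Exact stretches of 100 bases shared with another of the 8 genes made up 9.46% of the Myh1, 9.17% of the Myh2, 3.92% of the Myh4, 11.2% of the Myh7, 11.6% of the Myh6 and 5.17% of the Myh8 transcript, and none of Myh3 or Myh7b. Reads from those stretches could have been split between neighbors or left out by the authors' counting.

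Per kilobase of exon, the levels ran from Myh4 through Myh1 and Myh2 to 5 scarce genes, Myh8, Myh6, Myh7, Myh7b and Myh3. The exonic length, over all annotated exons, was 11772 bases for Myh8 and 8616 for Myh7, against 6016 for Myh4. Their longest coding sequences were alike, at 5805 to 5826 bases in all 8 genes. Myh8 and Myh7 were thus scaled down the most, here and in the shares below, and the order of the scarcest genes depends on the length used. In Control the mean level was 6621 ± 189 CPM per kb for Myh4, 1745 ± 315 for Myh1, 70.5 ± 40.4 for Myh2 and 3.58 ± 0.379 for Myh8 (SD, n = 4). In LLC the same levels were 7260 ± 1504, 1059 ± 394, 28.2 ± 14.9 and 4.18 ± 0.749 CPM per kb (SD, n = 6). Among these 4 genes neighbors in the order had ranges that did not overlap, except Myh2 and Myh8 in LLC, where LLC 1 had 4.33 CPM per kb of Myh2. Myh6, Myh7, Myh7b and Myh3 had mean levels between 0.163 and 0.612 CPM per kb in either group. The ranges of Myh6 and Myh7 overlapped in Control, as did those of Myh7 and Myh7b. In LLC the ranges of Myh6 and Myh7b overlapped, as did those of Myh3 and Myh7. The sum of the 8 genes was 8442 ± 411 CPM per kb (SD, n = 4) in Control and 8352 ± 1301 (SD, n = 6) in LLC, with the lowest value, 5940.5, in LLC 1 and values of 8078 to 9479 in the other 5 LLC mice.

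**Figure D1:**
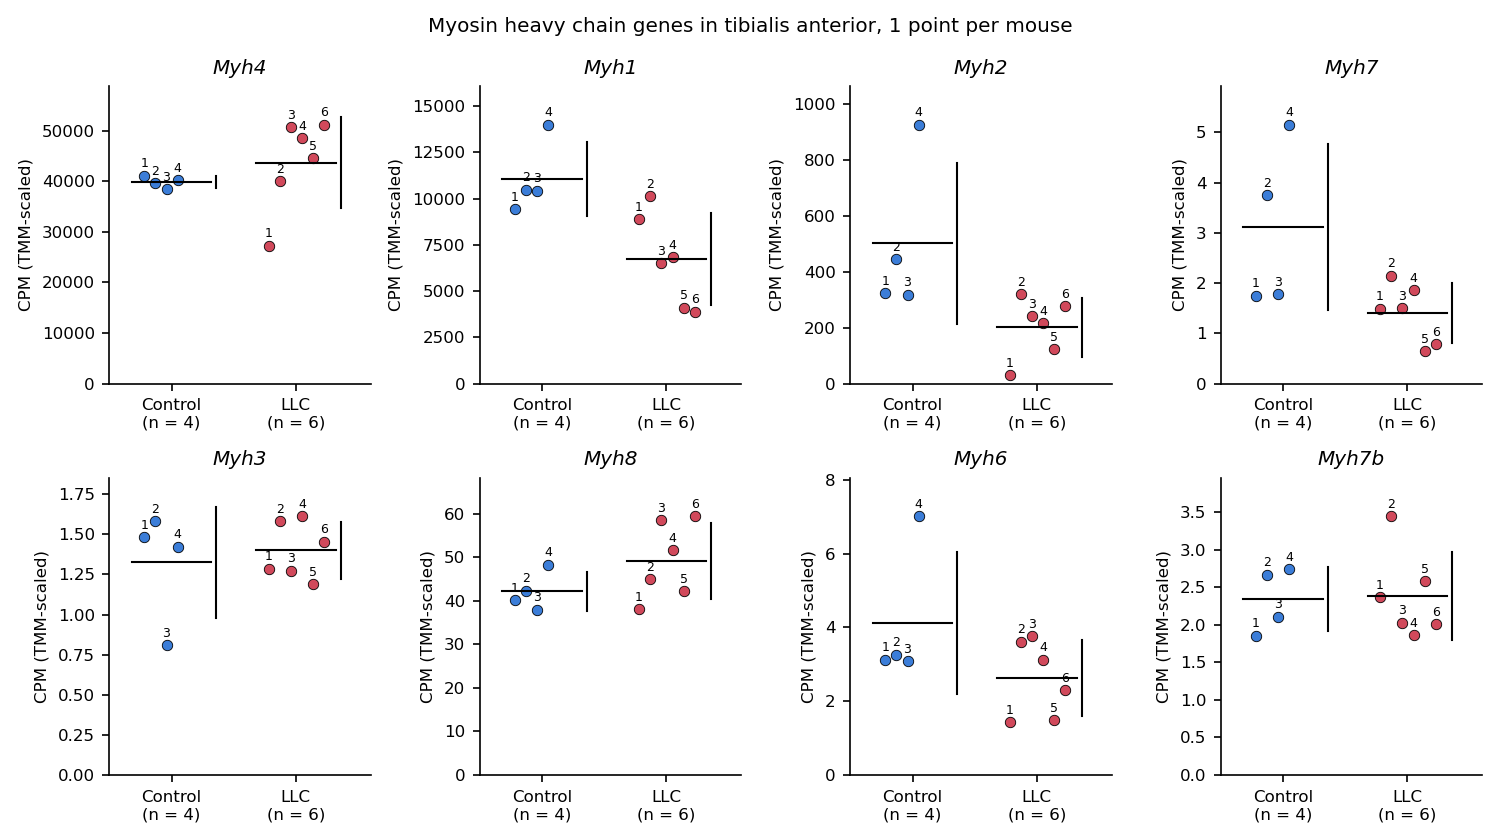
Level of each myosin heavy chain gene in CPM (counts relative to TMM-scaled library totals; linear axis from 0) in each mouse, with the replicate number above the point, the group mean as a horizontal line and 1 SD as a vertical bar (Control n = 4, LLC n = 6). Myh1 and Myh2 had 5 of 6 LLC mice below every Control mouse, while Myh4 spread from 27275 to 51130 CPM in LLC around a narrow Control range.

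Myh4 (ENSMUSG00000057003, chromosome 11, 67238029 to 67260446, plus strand, mm10), the gene of the IIb isoform, kept a narrow range in Control and spread in LLC. Its level was 41061, 39661, 38360 and 40240 CPM in Control 1 to 4. In LLC 1 to 6 it was 27275, 40024, 50601, 48428, 44590 and 51130 CPM. LLC 3 to 6 lay above every Control mouse, LLC 2 lay among them and LLC 1 lay below them. The highest level was 1.07 times the lowest in Control and 1.87 times in LLC. The log2 fold change of LLC over Control was 0.13 ± 0.18 (SE; edgeR quasi-likelihood test, adjusted p = 0.652), and without LLC 1 it was 0.24 ± 0.10 (adjusted p = 0.113).

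Myh1 (ENSMUSG00000056328, chromosome 11, 67200052 to 67224575, plus strand), the gene of the IIx isoform, was lower in most LLC mice. Its level was 9431, 10486, 10434 and 13996 CPM in Control 1 to 4. In LLC 1 to 6 it was 8883, 10127, 6528, 6847, 4096 and 3885 CPM. Of the 6 LLC mice 5 were below every Control mouse, LLC 2 lay inside the Control range, and LLC 5 and LLC 6 were the lowest. The log2 fold change was -0.72 ± 0.26 (SE; edgeR, adjusted p = 0.114), which did not pass the threshold of an adjusted p of 0.05 and a 1.5-fold change. Without LLC 1 it was -0.81 ± 0.24 (adjusted p = 0.0448) and passed. In these bulk samples, fewer fibers of a type and less RNA per fiber cannot be told apart.

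Myh2 (ENSMUSG00000033196, chromosome 11, 67171027 to 67197517, plus strand), the gene of the oxidative IIa isoform, had the widest spread among LLC mice of the 8 genes. Its level was 323, 444, 318 and 927 CPM in Control 1 to 4. In LLC 1 to 6 it was 30.9, 319, 241, 217, 122 and 278 CPM. Again 5 of 6 LLC mice were below every Control mouse, and the sixth, LLC 2, was just above the lowest Control mouse. The highest LLC level was 10.3 times the lowest, which was that of LLC 1, and Control 4 was 2.91 times Control 3. The log2 fold change was -1.32 ± 0.51 (SE; edgeR, adjusted p = 0.127). Without LLC 1 it was smaller in size, -1.09 ± 0.32, and passed the threshold (adjusted p = 0.0417), and without Control 4 it was -0.85 (adjusted p = 0.352).

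Myh7 (ENSMUSG00000053093, chromosome 14, 54970684 to 54994626, minus strand), the slow isoform, was scarce in this muscle, with 13 to 94 reads per library. Its level was 1.75, 3.75, 1.78 and 5.15 CPM in Control 1 to 4. In LLC the lowest level was 0.644, the median 1.50 and the highest 2.15 CPM, and 4 of 6 LLC mice were below every Control mouse. The lowest LLC values were those of LLC 5 and LLC 6, and at 13 reads the 95% Poisson interval of the count was 6.92 to 22.2. The log2 fold change was -1.14 ± 0.38 (SE; edgeR, adjusted p = 0.0916). DESeq2's Wald test gave a log2 fold change of -1.14 with an adjusted p of 0.0404, past the threshold. Without LLC 1 the edgeR value was -1.16 ± 0.39 (adjusted p = 0.0675), and without Control 4 it was -0.80 ± 0.38 (adjusted p = 0.267).

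Neither developmental isoform passed the test in either direction. Myh3, the embryonic isoform (ENSMUSG00000020908, chromosome 11, 67078300 to 67102291, plus strand), had 15 to 32 reads per library, with levels of 0.811 to 1.58 CPM in Control and 1.19 to 1.61 CPM in LLC. The Myh3 ranges overlapped and the log2 fold change was 0.08 ± 0.20 (SE; edgeR, adjusted p = 0.827). Myh8, the perinatal isoform (ENSMUSG00000055775, chromosome 11, 67277124 to 67308634, plus strand), was at 40.1, 42.3, 38.0 and 48.3 CPM in Control 1 to 4. In LLC 1 to 6 Myh8 was at 38.1, 45.0, 58.6, 51.7, 42.2 and 59.4 CPM, and LLC 3, LLC 4 and LLC 6 were above every Control mouse. The log2 fold change of Myh8 was 0.22 ± 0.14 (SE; edgeR, adjusted p = 0.307).

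Myh6 and Myh7b, the other cardiac and slow genes, were measured at a few CPM. Myh6 (ENSMUSG00000040752, chromosome 14, 54941921 to 54966927, minus strand) was at 3.12, 3.26, 3.08 and 7.01 CPM in Control 1 to 4 and from 1.44 to 3.76 CPM in LLC. Of the LLC mice 3 were below every Control mouse, and the log2 fold change was -0.66 ± 0.33 (SE; edgeR, adjusted p = 0.216), or -0.27 (adjusted p = 0.607) without Control 4. The heart markers Nppa, Nppb, Myl7, Tnni3 and Ryr2 summed to at most 1.01 CPM in any library, and Myl7 had 0 counts in all 10. Myh7b (ENSMUSG00000074652, chromosome 2, 155611212 to 155634307, plus strand) was at 1.85 to 2.74 CPM in Control and 1.86 to 3.44 CPM in LLC, with a log2 fold change of 0.02 ± 0.20 (SE; edgeR, adjusted p = 0.948). The introns of Myh7, Myh6 and Myh7b hold the microRNA genes of miR-208b, miR-208a and miR-499, whose hairpins had 0 counts here, and the small RNA libraries were not analysed here.

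None of the 8 genes (0 of 8) passed the threshold in edgeR's test, against 5.63% of all tested genes (3.99% lower and 1.65% higher in LLC). At an unadjusted p of 0.05 or less there were 3 of 8 (Myh1, Myh2 and Myh7, each lower in LLC), against 27.4% of all tested genes. DESeq2 placed 1 of 8 past the threshold (Myh7), against 8.29% of all genes. Without LLC 1, edgeR placed 2 of 8 past it (Myh1 and Myh2), against 7.65% of all genes. Limma voom with sample quality weights placed 1 of 8, Myh1, past it (adjusted p = 0.0280), against 997 of the 12690 tested genes. The median log2 fold change of the 8 genes was -0.32, with 4 above and 4 below 0, beside 0.00193 over all tested genes, of which 49.7% were below 0. In none of the 8 did the groups separate without overlap, as they did in 16.0% of all tested genes (9.57% lower and 6.40% higher in LLC).

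**Figure D2:**
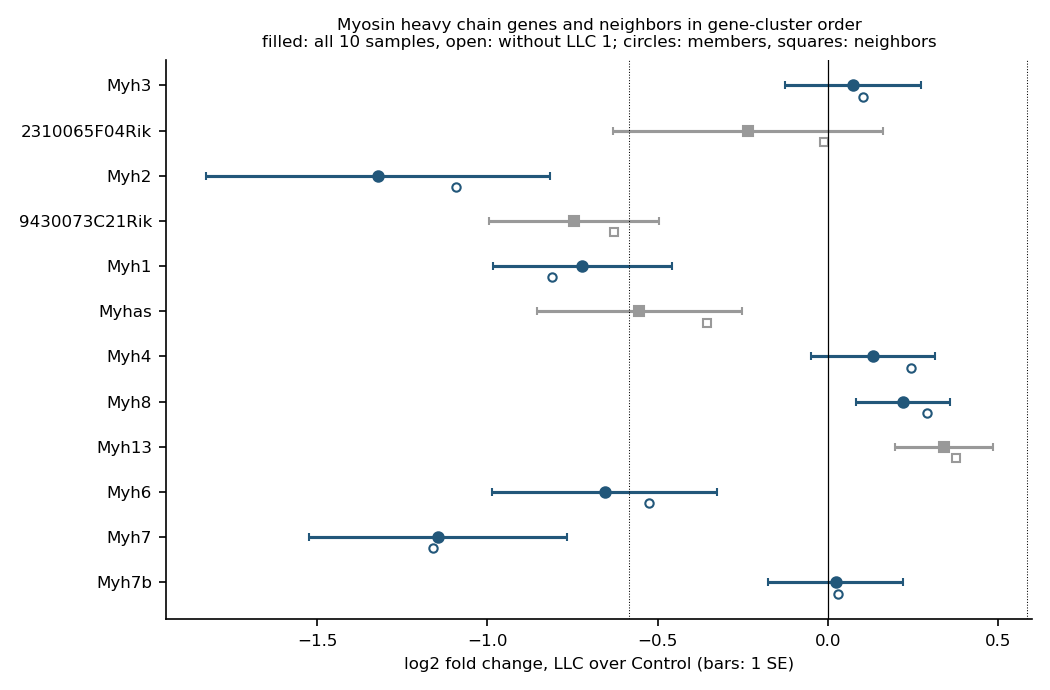
Log2 fold change of LLC over Control (edgeR, bars 1 SE) of the 8 genes (circles) and of the neighbors in the fast myosin gene cluster (squares), listed in the order of the cluster on chromosome 11 and then Myh6, Myh7 and Myh7b. Filled symbols use all 10 samples and open symbols leave out LLC 1, and dotted lines mark 1.5-fold. Myh2, Myh7 and Myh1 lay furthest below 0, and Myh4 and Myh8 lay slightly above it.

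A second comparison asked how the 8 genes divided the myosin heavy chain RNA of each muscle. The share of a gene was its count per kilobase of exon over the sum of the same for the 8 genes, in percent, so it does not depend on how libraries are scaled. Myh4 and Myh1 together made up 98.5% to 99.9% of the total in every mouse, and the minor genes Myh3, Myh8, Myh6 and Myh7b together made up 0.0513% to 0.0676%. The IIb gene Myh4 held 81.6%, 79.3%, 79.0% and 74.1% in Control 1 to 4. In LLC 1 to 6 the Myh4 share was 76.3%, 80.2%, 88.7%, 87.8%, 91.8% and 92.8%. LLC 3 to 6 were above every Control mouse, while LLC 1 and LLC 2 lay inside the Control range. The mean Myh4 share was 78.5% ± 3.18 (SD, n = 4) in Control and 86.3% ± 6.60 (SD, n = 6) in LLC, a difference of 7.75 percentage points (exact permutation test, two-sided, p = 0.0762). Without LLC 1 the difference was 9.74 percentage points (exact permutation test, p = 0.0317).

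The Myh1 share mirrored that of Myh4, since the shares sum to 100% and both genes made up nearly all of it. It was 17.8%, 19.9%, 20.4% and 24.4% in Control 1 to 4, and 23.5%, 19.2%, 10.8%, 11.8%, 7.98% and 6.68% in LLC 1 to 6. The same 4 LLC mice, LLC 3 to 6, lay outside the Control range, here below it. The mean Myh1 share was 20.6% ± 2.78 (SD, n = 4) in Control and 13.3% ± 6.64 (SD, n = 6) in LLC, a difference of -7.26 percentage points (exact permutation test, two-sided, p = 0.0857). Without LLC 1 the difference was -9.30 percentage points (exact permutation test, p = 0.0317).

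The IIa gene Myh2 held a small share that was lower in every LLC mouse. Its share was 0.542%, 0.749%, 0.553% and 1.44% in Control 1 to 4, and 0.0729%, 0.539%, 0.357%, 0.332%, 0.212% and 0.426% in LLC 1 to 6. All 6 LLC mice were below every Control mouse, although LLC 2 and Control 1 nearly touched. The mean was 0.821% ± 0.423 (SD, n = 4) in Control and 0.323% ± 0.163 (SD, n = 6) in LLC, a difference of -0.50 percentage points. The exact permutation test gave p = 0.00952 (two-sided), the smallest that 210 splits allow, and 0.0667 after Benjamini-Hochberg adjustment over the 7 shares and ratios tested, so the difference did not hold after that adjustment. Leaving out LLC 1 gave a difference of -0.45 percentage points and p = 0.0159, the smallest that 126 splits allow (exact permutation test), and leaving out Control 4 gave -0.29 percentage points (exact permutation test, p = 0.0238). Because the groups did not overlap, removing any 1 mouse had to give the smallest p possible. The Myh7 share was 0.00421% ± 0.00206 (SD, n = 4) in Control and 0.00201% ± 0.000912 (SD, n = 6) in LLC, with 4 of 6 LLC mice below every Control mouse (exact permutation test, two-sided, p = 0.0762).

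**Figure D3:**
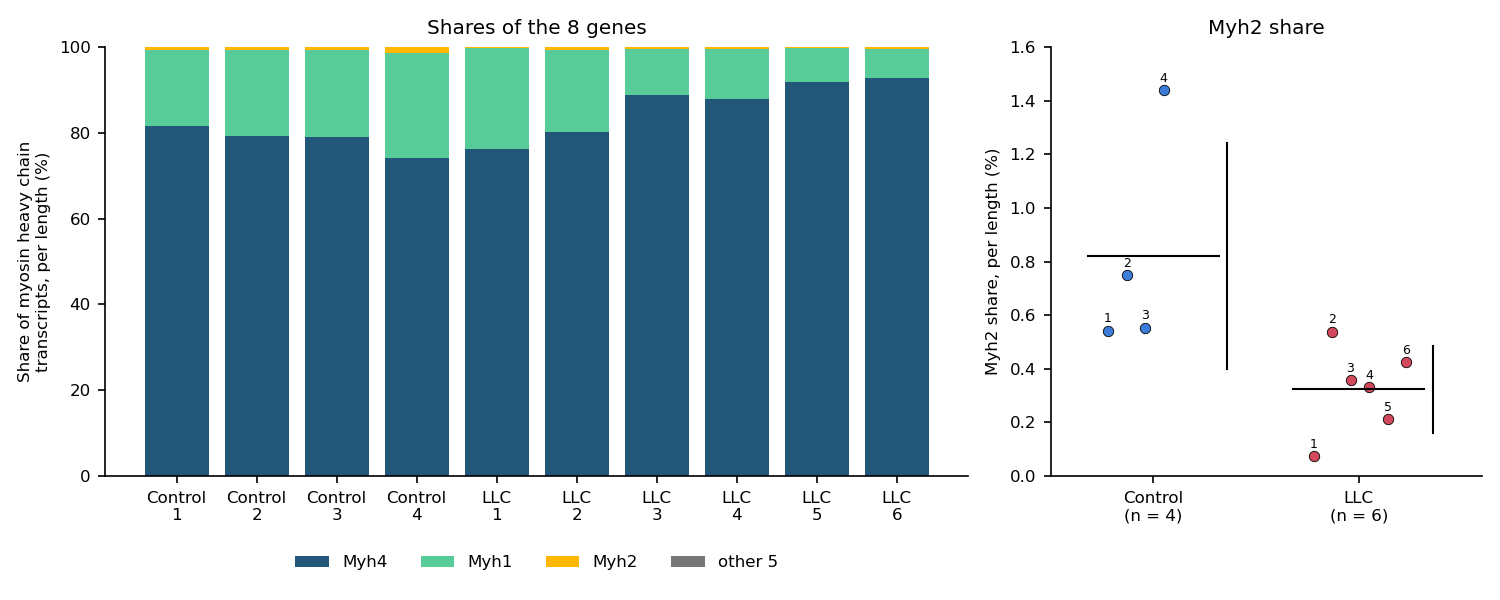
Left, share of each gene in the summed length-scaled counts of the 8 myosin heavy chain genes in each mouse, in percent (stacked bars from 0 to 100, the 5 genes other than Myh4, Myh1 and Myh2 are too small to see). Right, the Myh2 share alone with the group mean (line) and 1 SD (bar). Myh4 reached 87.8% to 92.8% in LLC 3 to 6, and all 6 LLC mice had a Myh2 share below the lowest Control value of 0.542%.

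Ratios of reads between 2 genes within a library asked whether the isoforms changed unequally, with no length or library scaling. The log2 ratio of Myh2 to Myh4 was -6.99, -6.48, -6.91 and -5.44 in Control 1 to 4, and -9.78, -6.97, -7.71, -7.80, -8.51 and -7.52 in LLC 1 to 6. LLC 2 lay inside the Control range and the other 5 lay below it, with LLC 1 the lowest. The mean was -6.46 ± 0.71 (SD, n = 4) in Control and -8.05 ± 0.98 (SD, n = 6) in LLC, so Myh2 relative to Myh4 was 0.331 times the Control level (difference -1.60, exact permutation test, two-sided, p = 0.0190, 0.0667 after Benjamini-Hochberg adjustment over 7). Without LLC 1 the difference was -1.25 (exact permutation test, p = 0.0317).

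The log2 ratio of Myh1 to Myh4 was -2.12, -1.92, -1.88 and -1.52 in Control 1 to 4, and -1.62, -1.98, -2.95, -2.82, -3.44 and -3.72 in LLC 1 to 6. LLC 1 and LLC 2 were inside the Control range and LLC 3 to 6 were below it. The difference of means was -0.90 (Control -1.86 ± 0.25, SD, n = 4; LLC -2.76 ± 0.82, SD, n = 6; exact permutation test, two-sided, p = 0.0857), and it was -1.12 without LLC 1 (exact permutation test, p = 0.0317). LLC 1 thus had the lowest Myh2 relative to Myh4 of all 10 mice and the second highest Myh1 relative to Myh4, after Control 4. For the slow gene Myh7 the log2 ratio to Myh4 was -13.79 ± 0.77 (SD, n = 4) in Control and -14.99 ± 0.84 (SD, n = 6) in LLC, a difference of -1.20 (exact permutation test, two-sided, p = 0.0762).

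**Figure D4:**
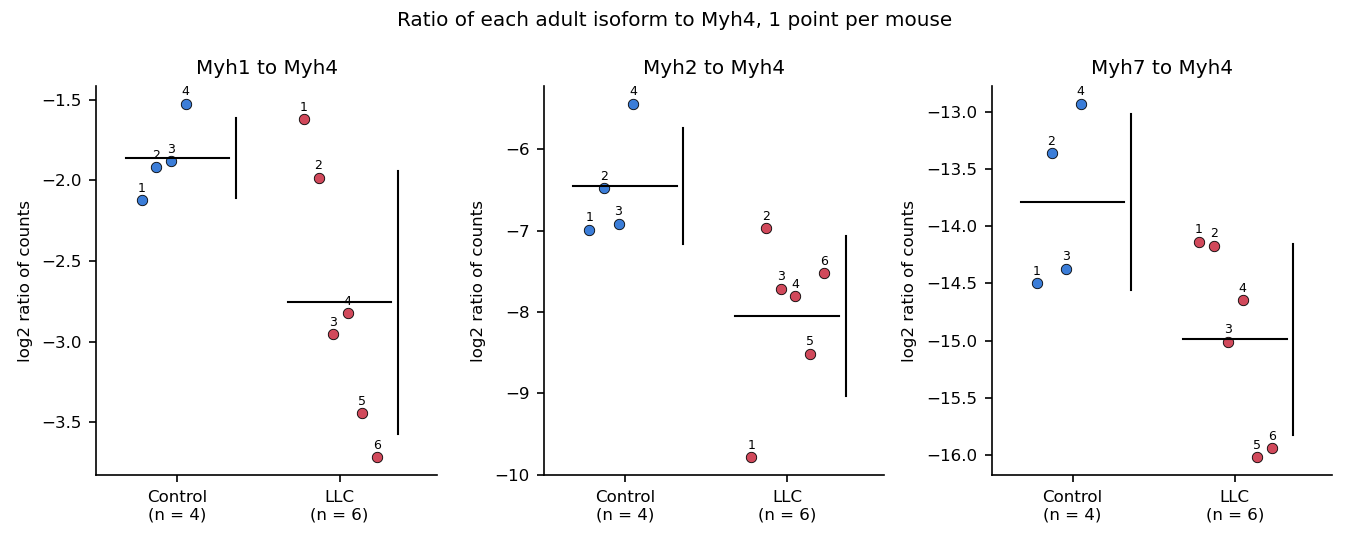
Log2 ratio of the counts of Myh1, Myh2 and Myh7 to those of Myh4 in each mouse, with the replicate number above the point, the group mean as a line and 1 SD as a bar (log2 axes that do not start at 0, Control n = 4, LLC n = 6). For Myh2 5 of 6 LLC mice lay below every Control mouse, and for Myh1 and Myh7 4 of 6.

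The fast myosin genes share a stretch of chromosome 11 from 67078300 to 67371586 that holds 11 annotated genes. Myh13, the isoform of extraocular and laryngeal muscle, was at 14.2 to 19.0 CPM in Control and 15.6 to 26.2 CPM in LLC, with a log2 fold change of 0.34 ± 0.14 (SE; edgeR, adjusted p = 0.154). Myhas is an antisense transcript that starts between Myh1 and Myh4 and shares 515 exonic bases with Myh1 on the other strand. Its level was 49.0 to 55.1 CPM in Control and 10.5 to 48.7 CPM in LLC, so that all 6 LLC mice were below every Control mouse, with LLC 1 the lowest. The log2 fold change of Myhas was -0.55 ± 0.30 (SE; edgeR, adjusted p = 0.248), and without LLC 1 it was -0.36 (adjusted p = 0.0374), below 1.5-fold in size.

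2310065F04Rik, a long noncoding RNA between Myh3 and Myh2 also known as linc-Myh, was at 112 to 136 CPM in Control. It was at 18.8 CPM in LLC 1 and 79.3 to 145 CPM in the other LLC mice, and its log2 fold change was -0.24 ± 0.40 (SE; edgeR, adjusted p = 0.716). Without LLC 1 the log2 fold change was -0.011 ± 0.15 (adjusted p = 0.968). 9430073C21Rik, antisense to the end of Myh2 over 237 exonic bases, was at 2.97 to 6.57 CPM in Control and 1.49 to 3.12 CPM in LLC, with a log2 fold change of -0.75 ± 0.25 (SE; edgeR, adjusted p = 0.0934), or -0.43 (adjusted p = 0.274) without Control 4. Mir6923 and Gm26476 had 0 counts in all 10 libraries. The study's methods state default HTSeq settings for RefSeq genes, whereas the counts are listed by Ensembl identifier. It is therefore not settled which strand option was used for them, and reads of these genes and of the genes they overlap may not be fully separated. Trpc4ap, whose exons overlap those of Myh7b by 37 bases on the other strand, had a log2 fold change of 0.19 ± 0.14 (SE; edgeR, adjusted p = 0.390), or 0.081 ± 0.086 (adjusted p = 0.554) without LLC 1.

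The genes whose log2 CPM ran most closely with each adult isoform across the 10 samples were taken from 10384 genes, as a description in which all samples share a design with 2 groups. Closest to Myh4 were Slc35d1 (Pearson r = 0.966), Tbc1d16 (0.953), Slc16a10 (0.952), Sfxn3 (0.951) and Smyd3 (0.950). Closest to Myh1 were Adam19 (0.957), Rdh13 (0.954), Tnik (0.951), Got1 (0.943), the cytosolic aspartate aminotransferase, and Map1a (0.938). Closest to Myh2 were Akap7 (0.975), Myl3 (0.964), the slow essential light chain, Col22a1 (0.960), 2510009E07Rik (0.960) and Rp2 (0.959). Closest to Myh7 were Ubn1 (0.954), Adam19 (0.930), Mbd5 (0.920), Trak2 (0.918) and St8sia4 (0.907). Among the members themselves, Myh1 and Myh7 had r = 0.896, Myh2 and Myh6 0.866, Myh4 and Myh8 0.784, and Myh1 and Myh4 -0.535.

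Of 14 slow-fiber contractile genes 3 passed the threshold, each lower in LLC, against 5.63% of all tested genes. The median log2 fold change over the list was -0.46, with 11 below 0 and 3 above, beside 0.00193 over all tested genes. Myl2, the slow regulatory light chain, fell from 2.33 ± 1.33 CPM (SD, n = 4) in Control to 0.736 ± 0.235 CPM (SD, n = 6) in LLC (log2 fold change -1.66 ± 0.37, edgeR adjusted p = 0.0221). Its ranges overlapped, at 0.931 to 3.95 CPM in Control and 0.411 to 1.04 CPM in LLC, where 3 counts correspond to 0.141 to 0.180 CPM. Myom3, an M-band protein, fell from 18.2 ± 5.94 to 8.85 ± 3.28 CPM (log2 fold change -1.04 ± 0.28, edgeR adjusted p = 0.0470), and Myoz2, a Z-disc calcineurin-binding protein, from 32.3 ± 9.15 to 16.5 ± 5.36 CPM (-0.97 ± 0.23, edgeR adjusted p = 0.0284). Myl3 was lower in all 6 LLC mice than in any Control mouse, at 2.16 to 24.3 CPM against 31.3 to 80.4 CPM, but did not pass (log2 fold change -1.66 ± 0.46, edgeR adjusted p = 0.0531). Without LLC 1 Myl3 passed, at -1.43 ± 0.26 (edgeR adjusted p = 0.00446). DESeq2 placed 5 of the 14 past the threshold, against 8.29% of all genes, and edgeR without LLC 1 placed 6, against 7.65%. With each of the 10 samples left out in turn, Myl2 passed in 7 fits, Myoz2 in 4 and Myom3 in 3. Leaving out Control 2 or LLC 6 left 0, and leaving out Control 1, Control 3, Control 4 or LLC 5 left 1.

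Of 14 fast-fiber contractile genes 0 passed in edgeR, in DESeq2 or without LLC 1, against 5.63%, 8.29% and 7.65% of all genes. At an unadjusted p of 0.05 or less edgeR gave 3 of these 14, against 27.4% of all tested genes, and the median log2 fold change was -0.23. That median depended on LLC 1. Pvalb and Myoz1, the genes in the middle of the list, were each at -0.23 with all samples. Without LLC 1 they were at -0.076 and -0.070, and they were named after their values were seen. Atp2a1, the calcium pump of fast fibers, was at 19643 ± 1030 CPM (SD, n = 4) in Control and 20476 ± 1611 CPM (SD, n = 6) in LLC. Tnnt3, fast troponin T, was at 16988 ± 444 CPM (SD, n = 4) in Control and 16675 ± 1377 CPM (SD, n = 6) in LLC. The 3 of 14 genes whose groups did not overlap, against 16.0% of all tested genes, were the fast light chains Myl1 (log2 fold change -0.71, edgeR adjusted p = 0.144) and Mylpf (-0.47, 0.116) and the tropomyosin Tpm2 (-0.54, 0.0948), all lower in LLC and named after their values were seen.

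Of 15 genes of the thick filament, its assembly and its turnover, 1 passed the threshold, against 5.63% of all tested genes. Fbxo32, the muscle ubiquitin ligase atrogin-1, rose from 349 ± 53.8 CPM (SD, n = 4) in Control to 1426 ± 1157 CPM (SD, n = 6) in LLC (log2 fold change 2.03 ± 0.49, edgeR adjusted p = 0.0307). Trim63, the ubiquitin ligase MuRF1 that binds the M band and acts on myosin heavy chain, was higher in all 6 LLC mice than in any Control mouse but did not pass in edgeR (log2 fold change 2.19 ± 0.66, adjusted p = 0.0718), and it was named after its values were seen. Without LLC 1 it was 1.46 ± 0.41 and passed (edgeR adjusted p = 0.0338). DESeq2 placed 2 of the 15 past the threshold, against 8.29% of all genes. EdgeR placed 2 without LLC 1, against 7.65% of all genes, and 2 without LLC 4, against 805 of 12617 genes. Leaving out any 1 Control mouse or LLC 5 left 0.

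Regeneration and denervation genes, the setting in which Myh3 and Myh8 are re-expressed, were tested for 12 of 15, and Chrng, Mymk and Mymx had too few counts. Of the 12, 4 passed, against 5.63% of all tested genes: Actc1, Pax7 and Myf5 fell and Myog rose. Actc1, the cardiac actin of immature fibers, fell from 70.3 ± 12.3 CPM (SD, n = 4) in Control to 17.1 ± 9.14 CPM (SD, n = 6) in LLC (log2 fold change -2.04 ± 0.38, edgeR adjusted p = 0.00755). Myog, the myogenic factor that rises in denervated muscle, rose from 1.59 ± 0.418 to 3.64 ± 0.577 CPM (log2 fold change 1.19 ± 0.19, edgeR adjusted p = 0.00336). The satellite cell genes Pax7 and Myf5 fell by 1.01 and 0.94 on the log2 scale (edgeR adjusted p = 0.00626 and 0.0433), and Myf5 rested on 8 to 26 reads per library. With each sample left out in turn Pax7 passed in 10 of 10 fits, whereas Myf5 passed in 3, without Control 3, LLC 1 or LLC 4. The median over the 12 was 0.33, DESeq2 placed 6 past the threshold (8.29% of all genes), and edgeR without LLC 1 placed 6 (7.65% of all genes).

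Of 18 regulators of fiber type, among them Mef2c and Nfatc1, 0 passed in edgeR, in DESeq2 or without LLC 1, against 5.63%, 8.29% and 7.65% of all genes. Of the 18, 2 had an unadjusted edgeR p of 0.05 or less, against 27.4% of all tested genes. Mef2c was at 555 ± 35.6 CPM (SD, n = 4) in Control and 424 ± 149 CPM (SD, n = 6) in LLC, and Tbx15 was at 317 ± 13.5 and 269 ± 52.0 CPM. Of 5 myosin heavy chain genes outside the 8, 1 passed, against 5.63% of all tested genes. They were the non-muscle Myh9, Myh10 and Myh14, the smooth muscle gene Myh11, and Myh13 of extraocular and laryngeal muscle. Myh10 fell from 18.0 ± 3.48 CPM (SD, n = 4) in Control to 9.06 ± 2.94 CPM (SD, n = 6) in LLC (log2 fold change -0.99 ± 0.24, edgeR adjusted p = 0.0304), and leaving out any 1 Control mouse or LLC 6 ended that call. Myh14 was higher in all 6 LLC mice than in any Control mouse and did not pass in edgeR (log2 fold change 0.96 ± 0.34, adjusted p = 0.106), and it was named after its values were seen. Without LLC 1, which had the highest level, it was 0.57 ± 0.14 (edgeR adjusted p = 0.0230), below 1.5-fold.

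**Figure D5:**
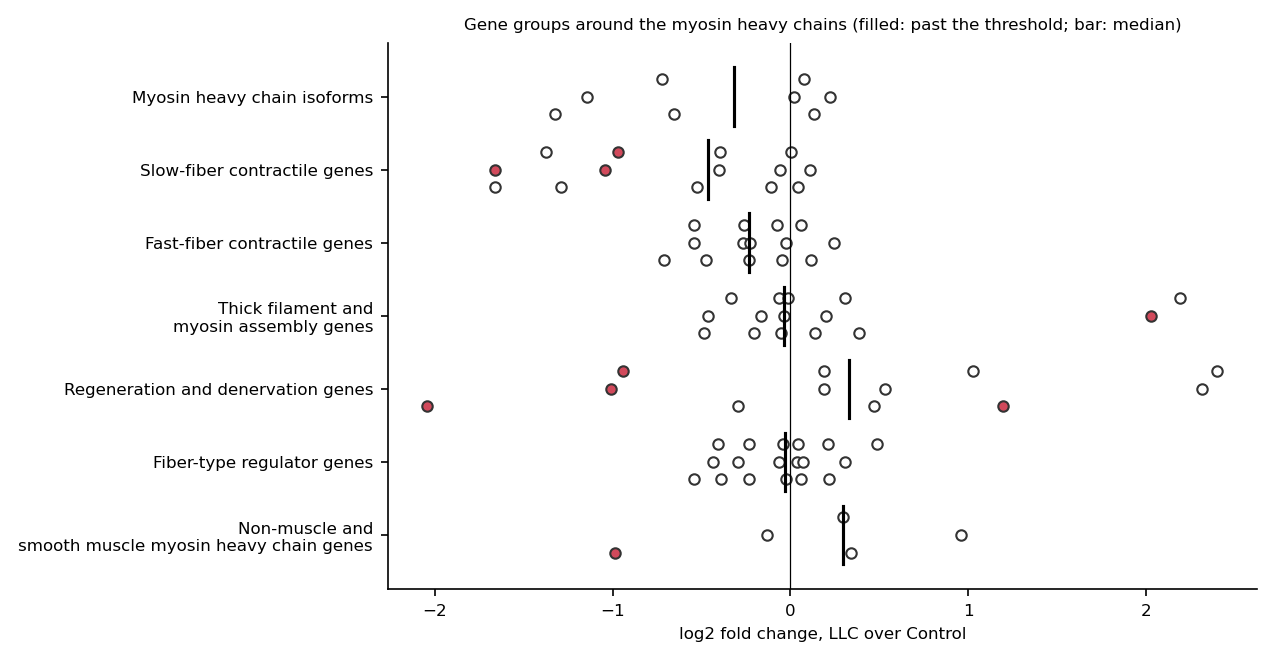
Log2 fold change of LLC over Control (edgeR) for each tested gene of the myosin heavy chain isoforms and of the gene lists described in the text, with filled points past the threshold (adjusted p of 0.05 or less and at least 1.5-fold) and bars at the median. With all samples, LLC 1 included, the myosin heavy chains hold no filled point and have a median of -0.32, between the slow-fiber list at -0.46 and the fast-fiber list at -0.23.

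Marker genes of some other cell types passed the threshold, which 5.63% of all tested genes did (3.99% lower and 1.65% higher in LLC). All 4 neutrophil markers passed the threshold and were higher in LLC, with a summed level of 0.371 to 1.53 CPM in Control and 29.0 to 65.2 CPM in LLC. All 4 fibroblast markers passed and were lower, at 197 to 244 CPM in Control and 43.8 to 71.8 CPM in LLC. Also past the threshold and lower were 2 of 2 tested satellite cell markers. With the untested Calcr, the satellite cell markers summed to 3.62 to 4.13 CPM in Control and 1.39 to 2.62 CPM in LLC. Of 3 Schwann cell markers 2 passed and were lower (35.9 to 41.0 against 18.3 to 26.3 CPM for the sum). None of 5 skeletal muscle fiber markers passed, and their sum was 48330 to 52385 CPM in Control and 33770 to 49823 CPM in LLC. Smooth muscle markers summed to 67.6 to 82.3 CPM in Control and 44.6 to 74.9 CPM in LLC, with 0 of 4 past the threshold, and 2 of 4 red cell markers passed, at 57.7 to 81.0 against 86.3 to 140 CPM. Adipocyte markers summed to 0.876 to 6.22 CPM in Control and 1.52 to 3.39 CPM in LLC, with 0 of 2 tested past the threshold. How far these differences contribute to the myosin heavy chain values was not tested.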

How the data were processed

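Deposited read counts per gene were analysed for 4 Control and 6 LLC tibialis anterior samples, 1 library per mouse. Per the labels and the study's methods, total RNA libraries were read from both ends in 1 lane, and the authors mapped reads to mm10 with TopHat and counted them with HTSeq. The deposited counts are whole numbers, not normalized, and are listed by Ensembl identifier. The paper names RefSeq genes and default HTSeq settings, so the annotation and strand option behind the deposited table remain unsettled. No column of per-sample values was left out (0). Coordinates, exonic lengths and overlaps came from GENCODE M21 (GRCm38), which held 37693 of the identifiers, and promoter windows came from RefSeq (GRCm38.p6), which held a window for all 8 genes.

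Genes were filtered with filterByExpr (minimum count 10), which kept 12690, libraries were scaled by TMM, and groups were compared with edgeR 4.0.16 (R 4.3.3) by its quasi-likelihood test with Benjamini-Hochberg adjustment over all tested genes. DESeq2 1.42.0 and limma 3.58.1 (voom with sample quality weights) were alternatives. The test scripts were run on simulated data. Past the threshold means an adjusted p of 0.05 or less and a 1.5-fold change. The SE of each log2 fold change was taken from the F statistic. Shares and log2 ratios (0.5 counts added to each gene) were compared by exact permutation over 210 splits (Python 3.11.15, scipy 1.17.1). The p-values set the difference between the groups against the variation between these mice. At this depth 3 counts correspond to 0.141 to 0.180 CPM, and the 95% Wilson interval of a gene's share of the 8 genes' counts spanned at most 0.101 percentage points to either side. These intervals cover counting error only, since reads without molecular identifiers are not independent molecules.

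The 8 genes, the gene lists and the tests were chosen with earlier results of these data known. Named genes were the 8, every annotated gene of the fast cluster, genes whose exons overlap a member, the 5 most alike in pattern to each adult isoform (average log2 CPM of at least 1), and from each list up to 4 past the threshold by size of change, or the 2 highest in level where none passed. Others are said to be named after their values were seen. Alternatives covered library scaling, the filter, the test, the length used, a block for the replicate number, and the removal of 1 sample at a time.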

Additional observations from a re-analysis of the deposited data

Results flagged for a closer look

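The values of each of the 8 genes, of their neighbors and of the shares and ratios were searched, within each group, for a sample far from the rest (Dixon's criterion at 95%). Of 40 groups searched 3 held such a sample, where chance gives about 1 in 20, or 2. Myh6 was at 7.01 CPM in Control 4, against 3.08 to 3.26 CPM in the other Control mice. 9430073C21Rik, antisense to Myh2, was at 6.57 CPM in Control 4, against 2.97 to 3.46 CPM in the others. Trpc4ap, which overlaps Myh7b on the other strand, was at 131 CPM in Control 3, the lowest Control value, against 139 to 141 CPM in the others.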

How the results depend on the processing

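With 4 against 6 mice and a wide spread within LLC, depth was not the main limit for Myh4, Myh1 and Myh2, whereas Myh7, Myh3, Myh6 and Myh7b rested on 13 to 128 reads per library. The number of the 8 genes past the threshold was 0 in edgeR under every scaling, filter, threshold and block tried. It was 1 with DESeq2, 1 with limma voom, 1 with DESeq2 without LLC 1 (chosen after seeing the data), and 0 to 2 with each sample left out. Under DESeq2 the slow-fiber list had 5, thick filament genes 2 and the myosin heavy chain genes outside the 8 had 2. With each sample left out, the counts were 0 to 6 for slow-fiber, 0 to 2 for thick filament and 3 to 6 for regeneration genes. For the myosin heavy chain genes outside the 8 they were 0 to 1. The Myh4 share difference was 6.27 to 9.74 percentage points, the Myh1 share difference -9.30 to -5.93, and the log2 ratio of Myh1 to Myh4 differed by -1.12 to -0.70, past 0.05 only without LLC 1 in each case. The Myh2 share differed by -0.59 to -0.29 percentage points and its ratio to Myh4 by -1.81 to -1.25, with unadjusted p of 0.05 or less in 10 of 10 (exact permutation tests). For the share this was fixed in advance. All 6 LLC mice were below every Control mouse, so any removal gives the smallest p that its splits allow. With all 10 samples both measures were at 0.0667 after Benjamini-Hochberg adjustment over the 7 shares and ratios (exact permutation tests). Reversed directions were those of genes near 0: Myh3 at -0.098 without Control 3 (-0.098 to 0.17 with each sample left out), and Myh7b at -0.012 with upper-quartile scaling and -0.097 to 0.10 with samples left out; the cause was not tested. All-gene calls were 715, and 475 with 10 counts in every sample, 1052 with DESeq2, and 415 to 966 with samples left out. Replicate numbers did not pair the samples (correlations of same-numbered pairs -0.0814 to 0.126, and 2 of 8 samples closest to their own number). With the replicate block, all-gene calls were 112. The slow-fiber, thick filament and regeneration lists and the myosin heavy chain genes outside the 8 had 0. LLC 5 and LLC 6 had no Control mouse of the same number, so they did not inform the blocked comparison. Over the 4 pairs Myh2 differed by -0.496 percentage points in share and -1.61 in log2 ratio to Myh4. Each gave p = 0.125, the smallest that 4 pairs allow (exact sign-flip test). Over the same pairs the Myh4 share differed by 4.75 and the Myh1 share by -4.26 percentage points, and the log2 ratio of Myh1 to Myh4 by -0.48 (each p = 0.375, exact sign-flip test). That of Myh7 to Myh4 differed by -0.70 (p = 0.25, exact sign-flip test). With LLC 5 and LLC 6 left out, the smaller differences cannot be credited to the block itself. The share per RefSeq protein length was not run, and the longest coding sequence in GENCODE was used in its place after seeing the data.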
